A study of Mus musculus with 4 samples.

Results

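The Wnt ligands, the Frizzled receptors and the co-receptors *Lrp5* and *Lrp6* were followed in dermal RNA of mouse skin. Members were all probe sets whose single gene symbol was that of a Wnt, a Frizzled, *Lrp5* or *Lrp6*, a rule that uses gene names alone. On these arrays each transcript is read by one or more probe sets, groups of short probes whose brightness is summarised as 1 signal. The rule found 61 of the 45101 probe sets on the array, for 31 of the 18193 genes with a probe set of a single symbol. Of these, 32 probe sets belonged to 19 Wnt genes, 26 to 10 Frizzled genes and 3 to the 2 Lrp genes.

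Female C57BL/6 mice, 10 weeks old by the labels, were compared under 4 conditions with 1 array per condition. The arrays came from abdominal skin of pregnant mice given PP2, an inhibitor of Src family kinases, and from abdominal skin of pregnant mice, dorsal skin of pregnant mice and abdominal skin of virgin mice, all of which were given the vehicle dimethyl sulphoxide (DMSO). They are called the PP2, abdominal, dorsal and virgin arrays, and values are given as those with PP2 and those in abdominal, dorsal and virgin skin. Injections were intradermal, 2 a day for 4 days, beginning at 12 days post-coitus (dpc) in pregnant mice, with PP2 at 1 mM. The sample titles place the pregnant mice at 15 dpc, the stage used here, and the sample descriptions at 16 dpc. The labels write ventral for the skin called abdominal here. Dermal cells were released from skin by collagenase and hyaluronidase, and the sources used here do not give how many mice entered an array. Every difference below is between single arrays and has no replicate error, so no p-value is given.

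Wnt proteins are lipid-modified secreted ligands that bind the cysteine-rich domain of Frizzled receptors, which cross the membrane repeatedly. When Lrp5 or Lrp6 joins the complex, β-catenin escapes destruction and acts with TCF/LEF factors on target genes. Without that co-receptor, Frizzled proteins also act in planar polarity, which orients hairs in mouse skin. In skin the pathway is best known for the formation and growth of hair follicles and for its activity in dermal fibroblasts and the dermal papilla.

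The stretch just before the gene start is shown for 3 members whose signals moved on the PP2 array, *Fzd4* and *Wnt16*, which were lower there, and *Fzd1*, which was higher. Sequences and positions are those of RefSeq for GRCm38.p6, 250 bases ending just before the start, printed 5′ to 3′ on the strand of the gene. The *Fzd4* window is chr7:89404116-89404365 on the plus strand, the *Wnt16* window chr6:22287977-22288226 on the plus strand and the *Fzd1* window chr5:4758217-4758466 on the minus strand. Capitals mark matches to the GC box (GGGCGG) and CCAAT on both strands, where a match on the opposite strand reads CCGCCC or ATTGG, to the TATA box (TATAAA) on the gene's strand, and to a TCF/LEF site (CTTTGAA or CTTTGAT or CTTTGTA or CTTTGTT) on both strands.
Fzd4: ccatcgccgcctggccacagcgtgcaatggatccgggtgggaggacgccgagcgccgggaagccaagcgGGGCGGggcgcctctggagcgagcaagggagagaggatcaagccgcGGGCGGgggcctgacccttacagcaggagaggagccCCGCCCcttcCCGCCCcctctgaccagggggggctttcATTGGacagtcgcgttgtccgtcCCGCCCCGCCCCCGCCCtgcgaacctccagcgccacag
Wnt16: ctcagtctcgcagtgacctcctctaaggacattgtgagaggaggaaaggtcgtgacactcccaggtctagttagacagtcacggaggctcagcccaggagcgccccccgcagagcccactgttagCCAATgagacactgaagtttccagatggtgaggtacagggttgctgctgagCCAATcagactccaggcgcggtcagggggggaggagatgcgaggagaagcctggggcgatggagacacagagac
Fzd1: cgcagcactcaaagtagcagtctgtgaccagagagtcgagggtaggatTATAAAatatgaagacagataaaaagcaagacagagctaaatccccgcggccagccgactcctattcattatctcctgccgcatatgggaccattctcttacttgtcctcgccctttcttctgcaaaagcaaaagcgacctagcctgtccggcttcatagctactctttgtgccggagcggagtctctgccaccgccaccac

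The 3 windows differed in the letters searched for. The *Fzd4* window held 7 GC boxes, some of them overlapping, 1 CCAAT and 25 CpG dinucleotides. That of *Wnt16* held 2 CCAAT, 0 GC boxes and 9 CpG, and that of *Fzd1* held 1 TATAAA, 202 bases before the start, with 0 GC boxes and 12 CpG. None of the 3 held a TCF/LEF match.

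Among the 31 member genes, 21 had such a window, 24 windows in all. A GC box stood in 18 of these 24 windows (75.0%), against 32.7% of all 32851 windows and 42.6% of the 21263 windows of protein-coding genes. The median window held 24 CpG, against 6 in all windows and 10 in those of protein-coding genes. A TCF/LEF match was found in 3 (12.5%), those of *Fzd7*, *Wnt5b* and *Wnt11*, against 14.8% of all windows. CCAAT stood in 9 (37.5%, against 33.9% of all) and TATAAA in 2 (8.33%, against 7.59%). Matches of different motifs overlapped in 0 places in member windows. These are matches of letters and not shown binding sites.

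Signals are MAS5 intensities, in arbitrary units on a linear scale, each with a detection call of present, marginal or absent. A gene counts as detected where any of its probe sets had a present call on any array. By this measure 22 of the 31 genes were detected, 11 Wnt genes, 9 Frizzled genes and both Lrp genes, and 17 of them on all 4 arrays. The abdominal array had the most members present, with 18, 22, 20 and 18 genes and 32, 38, 34 and 32 probe sets present on the PP2, abdominal, dorsal and virgin arrays. Of all probe sets, between 58.4% and 59.7% were present on an array. Counted over the 4 arrays together, 40 of the 61 member probe sets were present on at least 1, beside 24581 of all 34945 probe sets with a single symbol. The 9 genes with no present call were *Wnt1*, *Wnt2*, *Wnt2b*, *Wnt3a*, *Wnt8a*, *Wnt8b*, *Wnt9b*, *Wnt10b* and *Fzd9*, whose 12 probe sets gave signals of 2.06 to 156. An absent call sets no limit on the signal of those probes and does not show that the transcript was missing.

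Some undetected genes lie next to detected ones in the RefSeq gene order. *Wnt6* and *Wnt10a*, neighbours on chromosome 1, were both present on all 4 arrays. On chromosome 11, *Wnt9a* was present on all 4 arrays beside *Wnt3a*, present on none, and *Wnt3* was present on the PP2 and abdominal arrays beside *Wnt9b*, present on none. The neighbours *Wnt1* and *Wnt10b* on chromosome 15 were both absent throughout.

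**Figure D1:**
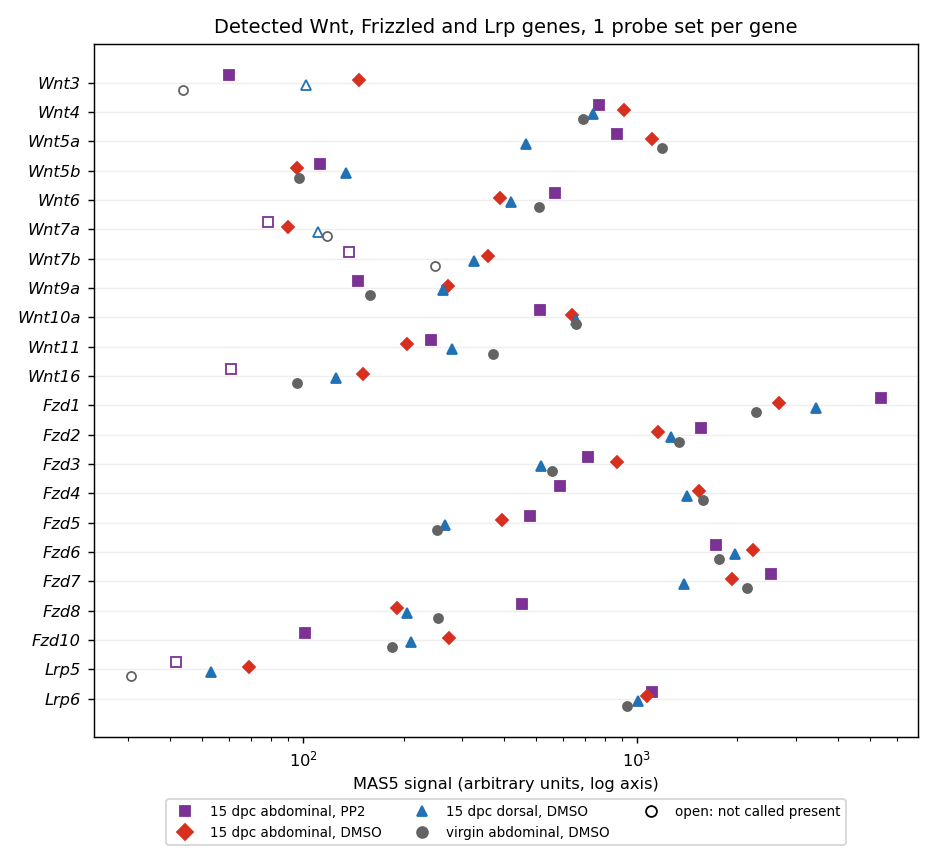
MAS5 signal (arbitrary units, log axis) of the 22 detected member genes on the 4 arrays, with 1 probe set per gene, the one with the highest mean log2 signal. Filled symbols are present calls and open symbols are not. *Fzd1* lies highest on the PP2 array at 5378, *Fzd4* lies lowest there at 589, and *Wnt5a* lies lowest on the dorsal array at 464.

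The members varied a little more between arrays than the typical probe set. Over the 29 member probe sets present on all 4 arrays, the brightest signal was a median of 1.80 times the dimmest, with a range of 1.13 to 3.17, against a median of 1.56 times over all 19471 such probe sets. The widest range was that of a *Wnt5a* probe set and the narrowest that of a *Fzd8* probe set.

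Ratios were counted where a probe set was present on at least 1 of the 2 arrays compared, and called past 2-fold where the brighter array had a present call. When PP2 was set against abdominal DMSO, 39 of the 61 member probe sets could be counted. Of these, 9 (23.1%) were lower on the PP2 array, in 8 genes (*Wnt3*, *Wnt4*, *Wnt7b*, *Wnt16*, *Fzd3*, *Fzd4*, *Fzd6* and *Fzd10*), where 7.89% of all probe sets were. Another 3 (7.69%), of *Fzd1*, *Fzd5* and *Fzd8*, were higher, where 3.39% of all were. Of the 9, 5 were not called present on the PP2 array and were counted through the abdominal array alone. Among the 31 members present on both arrays, 4 were lower (12.9%, against 5.94% of all) and 3 higher (9.68%, against 2.49%). The median log2 ratio was -0.27 over the members and -0.05 over all probe sets counted. With only the brightest probe set of each gene, 5 of 22 were lower and 2 were higher, against 4.89% and 3.74% of all genes. When signals were quantile normalized, the PP2 ratios of *Fzd1*, *Wnt3*, *Wnt4*, *Wnt16* and the dimmest *Fzd4* probe set fell within 2-fold.

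The lower calls lay mostly among dim probe sets. Below a brighter signal of 500, a limit chosen after the values were seen, 7 of 23 were lower (30.4%, against 11.1% of all probe sets), and at 500 or more, 2 of 16 were (12.5%, against 4.42%). Higher calls numbered 2 of 23 below 500 (8.70%, against 4.0%) and 1 of 16 at 500 or more (6.25%, against 2.75%). Set against the other DMSO arrays, choices also made after the values were seen, PP2 gave fewer lower calls. They were 5 of 37 against the dorsal array (13.5%, with 10.2% of all probe sets) and 4 of 34 against the virgin array (11.8%, with 7.49%). Higher calls were 2 of 37 against the dorsal array (5.41%, with 5.14% of all) and 1 of 34 against the virgin array (2.94%, with 3.08%). A single member, a *Fzd4* probe set, was past 2-fold lower on the PP2 array than on each of the 3 DMSO arrays, 2.5% of the 40 counted, near the 2.23% of all probe sets. None was past 2-fold higher than on each of the 3, against 0.22% of all probe sets.

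When abdominal skin of pregnant mice was compared with that of virgin mice, 4 of 39 members (10.3%) were higher in pregnancy, of *Wnt3*, *Fzd3*, *Fzd6* and *Lrp5*, where 3.48% of all probe sets were. A single one (2.56%), of *Wnt5a*, was lower, where 4.09% of all were. Of the 4 higher, those of *Wnt3*, *Fzd3* and *Lrp5* were absent on the virgin array. Among the 31 members present on both arrays, 1 was higher (3.23%, against 2.26% of all) and 0 lower (against 2.92%), and with only the brightest probe set of each gene 2 of 22 were higher (9.09%, against 3.41% of all genes) and 0 lower (against 3.55%). The members' median log2 ratio was 0.01, beside 0.03 over all. All 5 calls had a brighter signal below 500, where 4 of 23 members were higher (17.4%, against 4.37% of all) and 1 was lower (4.35%, against 5.64%). At 500 or more, 0 of 16 passed in either direction, against 2.55% higher and 2.46% lower of all.

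Between abdominal and dorsal skin of pregnant mice, 3 of 39 members (7.69%) were higher in abdominal skin, 2 probe sets of *Wnt5a* and 1 of *Fzd6*, near the 5.51% of all probe sets. A single one (2.56%), of *Wnt5b*, was lower, where 5.76% of all were. Among the 33 members present on both arrays, 2 were higher (6.06%, against 3.93% of all) and 0 lower (against 4.56%). Medians were 0.15 over the members and 0.03 over all. Below a brighter signal of 500, 1 of 23 was higher (4.35%, against 6.73% of all) and 1 lower (4.35%, against 7.33%). At 500 or more, 2 of 16 were higher (12.5%, against 4.26%) and 0 lower (against 4.16%). The abdominal DMSO array stands in all 3 comparisons, so a high or low value on it enters each of them.

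**Figure D2:**
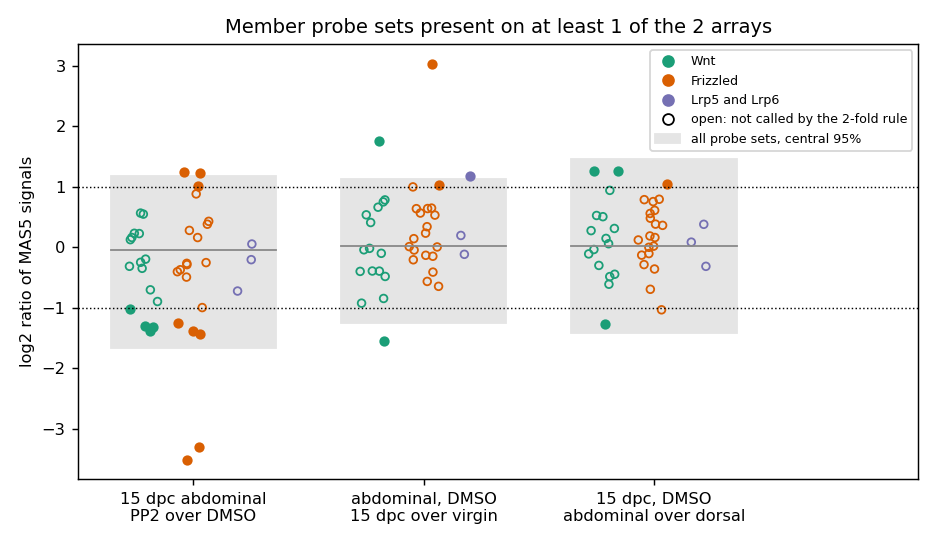
Log2 ratio of MAS5 signals for member probe sets present on at least 1 of the 2 arrays, in 3 comparisons with 39 points each. Filled points passed the 2-fold rule, grey boxes span the central 95% of all probe sets counted with their median as a line, and dotted lines mark 2-fold. The 2 points below -3 under PP2 are probe sets of *Fzd3* (-3.51) and *Fzd6* (-3.30), both absent on the PP2 array.

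Among ligands, *Wnt5a*, which acts mainly without β-catenin and through Ror2 in mice, differed between body sites by 3 of its 4 probe sets. Its brightest probe set gave 874 with PP2, 1111 in abdominal, 464 in dorsal and 1191 in virgin skin. The next gave 617 with PP2, 1005 in abdominal, 418 in dorsal and 1325 in virgin skin, and a dimmer one 182 with PP2, 163 in abdominal, 84.8 in dorsal and 227 in virgin skin. Dorsal skin was the lowest and virgin skin the highest in all 3. Abdominal over dorsal was 2.39-fold and 2.40-fold for the bright pair and 1.92-fold for the dimmer one, which missed the limit. The last probe set gave 62.0 with PP2, 56.8 in abdominal, 69.8 in dorsal and 166 in virgin skin, present on the PP2 and virgin arrays alone. By it abdominal skin was at least 2.92-fold lower in pregnant than in virgin mice, and it did not share the dip in dorsal skin.

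The 4 ligands past the limit with PP2 were dim or carried by 1 of several probe sets. *Wnt16*, best known in mice for cortical bone, gave 61.1 with PP2, 152 in abdominal, 125 in dorsal and 95.8 in virgin skin, absent on the PP2 array and present on the others. It was lowest with PP2, at least 2.48-fold below abdominal and at least 2.05-fold below dorsal skin. *Wnt7b*, which acts in hair follicles and in the lung, gave 138 with PP2, 359 in abdominal, 325 in dorsal and 248 in virgin skin, with present calls on the abdominal and dorsal arrays alone. It too was lowest with PP2, by at least 2.61-fold from abdominal skin. A second *Wnt7b* probe set, at 17.3 to 63.8, was present on no array.

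*Wnt3*, needed for axis formation in mouse embryos, gave 60.1 with PP2, 147 in abdominal, 102 in dorsal and 43.7 in virgin skin, present on the PP2 and abdominal arrays. It was 2.45-fold lower with PP2 than with DMSO in abdominal skin and at least 3.37-fold higher in abdominal skin of pregnant than of virgin mice. Its only probe set carries the suffix for probes that may also bind other transcripts, so the signal cannot be given to *Wnt3* alone. *Wnt4*, known for kidney and ovary development, gave 264 with PP2, 536 in abdominal, 377 in dorsal and 318 in virgin skin by the dimmer of its probe sets, 2.03-fold lower with PP2. The brighter gave 771 with PP2, 916 in abdominal, 738 in dorsal and 689.6 in virgin skin and stayed within 1.33-fold in all 3 comparisons. Both *Wnt4* probe sets were highest in abdominal skin.

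*Wnt6*, expressed in surface epithelium in mouse embryos, gave 567 with PP2, 388 in abdominal, 418 in dorsal and 509 in virgin skin by its brighter probe set. The dimmer, with the same suffix as the *Wnt3* probe set, gave 213 with PP2, 144 in abdominal, 219.6 in dorsal and 273 in virgin skin. Both were lowest in abdominal skin, with log2 ratios of 0.55 and 0.57 for PP2 over abdominal DMSO. In abdominal skin they were 1.31-fold and 1.90-fold lower in pregnant than in virgin mice. *Wnt10a*, whose loss in humans affects teeth, hair and sweat glands, gave 514 with PP2, 639 in abdominal, 655 in dorsal and 658 in virgin skin and passed 1.25-fold in none of the 3 comparisons.

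*Wnt5b*, the close relative of *Wnt5a*, gave 112 with PP2, 96.0 in abdominal, 134 in dorsal and 97.2 in virgin skin by 1 probe set, present on all arrays. The other gave 65.7 with PP2, 23.8 in abdominal, 57.5 in dorsal and 42.1 in virgin skin, present on the dorsal array alone, and was at least 2.42-fold lower in abdominal than in dorsal skin of pregnant mice. Both probe sets were brighter in dorsal than in abdominal skin, the opposite of *Wnt5a*. The first differed by 1.40-fold and carries the same suffix as the *Wnt3* probe set, and the second was absent in abdominal skin. *Wnt9a* and *Wnt11* were present on all 4 arrays, at 147 to 369, and *Wnt7a* on the abdominal array alone, at 90.1. The same *Wnt7a* probe set gave 111 in dorsal and 118 in virgin skin without a present call, so it was not highest in abdominal skin.

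The Frizzled receptors fall into groups of close relatives. *Fzd1*, *Fzd2* and *Fzd7*, which can signal through β-catenin, form the first. *Fzd1* gave 5378 with PP2, 2671 in abdominal, 3426 in dorsal and 2272 in virgin skin, highest with PP2 and 2.01-fold over abdominal skin. Its second probe set was far dimmer, with 69.0 with PP2, 97.1 in abdominal, 56.0 in dorsal and 62.4 in virgin skin, and ran the other way, at a log2 ratio of -0.49. *Fzd7* gave 2513 with PP2, 1929 in abdominal, 1383 in dorsal and 2138 in virgin skin, and the 3 probe sets of *Fzd2* gave 610 to 1556. Neither gene had a ratio past 1.48-fold in the 3 comparisons.

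*Fzd5* and *Fzd8* form another pair. *Fzd8* gave 454 with PP2, 191 in abdominal, 205 in dorsal and 253 in virgin skin, all present, and was 2.38-fold higher with PP2 than with DMSO in abdominal skin. All 3 DMSO arrays lay below the PP2 array. Its second probe set was flat, with 101 with PP2, 90.2 in abdominal, 90.2 in dorsal and 89.5 in virgin skin. *Fzd5* gave 137 with PP2, 58.4 in abdominal, 119 in dorsal and 91.3 in virgin skin by the dimmer probe set, present on the PP2 and abdominal arrays only, where PP2 was 2.35-fold higher. The brighter *Fzd5* probe set gave 477 with PP2, 393 in abdominal, 267 in dorsal and 252 in virgin skin, with PP2 over abdominal at 1.21-fold.

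*Fzd4*, which also binds norrin and is needed for the growth of retinal vessels in mice, was the 1 member past 2-fold lower with PP2 than in each of the 3 DMSO skins. Its brightest probe set gave 589 with PP2, 1534 in abdominal, 1410.5 in dorsal and 1582 in virgin skin, all present. The DMSO arrays lay close together, and PP2 was 2.60-fold below abdominal, 2.40-fold below dorsal and 2.69-fold below virgin skin. The second gave 626 with PP2, 1249 in abdominal, 818 in dorsal and 864 in virgin skin, again lowest with PP2, and its 1.99-fold difference from abdominal skin fell just short of the limit. With PP2 it was only 1.31-fold below dorsal and 1.38-fold below virgin skin. A dim one gave 19.3 with PP2, 46.0 in abdominal, 26.7 in dorsal and 23.1 in virgin skin, present on the abdominal array alone, and was at least 2.39-fold lower with PP2. All 3 had their lowest value with PP2, but only the brightest was past 2-fold below each of the 3 DMSO skins.

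Of the relatives of *Fzd4*, *Fzd10* gave 101 with PP2, 274 in abdominal, 210.1 in dorsal and 185 in virgin skin, all present. It was lowest with PP2, 2.70-fold below abdominal skin. Its second probe set, at 1.25 to 14.7, and *Fzd9*, at 48.9 to 101, were present on no array.

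*Fzd3* and *Fzd6* act in planar polarity, and loss of *Fzd6* disturbs hair direction in mice. The brighter *Fzd6* probe set gave 1726 with PP2, 2232 in abdominal, 1960.4 in dorsal and 1763 in virgin skin and stayed within 1.29-fold in the 3 comparisons. A dim one gave 16.9 with PP2, 166 in abdominal, 80.9 in dorsal and 81.6 in virgin skin, with present calls on the abdominal and virgin arrays alone. By it *Fzd6* was at least 9.85-fold lower with PP2, 2.04-fold higher in abdominal skin of pregnant than of virgin mice and at least 2.05-fold higher than in dorsal skin. The large ratios of *Fzd6* therefore came from 1 dim probe set and did not appear in the bright one.

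For *Fzd3*, a dim probe set gave 8.43 with PP2, 96.0 in abdominal, 85.8 in dorsal and 11.7 in virgin skin, with present calls on the abdominal and dorsal arrays. It was at least 11.4-fold lower with PP2 and at least 8.18-fold higher in abdominal skin of pregnant than of virgin mice. Both folds are nominal, since its signals with PP2 and in virgin skin were not called present. The brightest gave 714 with PP2, 871 in abdominal, 516 in dorsal and 556 in virgin skin, which was 1.22-fold lower with PP2 and 1.57-fold higher in pregnancy. Another gave 323 with PP2, 175 in abdominal, 283 in dorsal and 175 in virgin skin and ran the other way with PP2, at a log2 ratio of 0.88. The last detected one gave 138 with PP2, 165 in abdominal, 128 in dorsal and 181 in virgin skin, at a log2 ratio of -0.25 with PP2. Of the 4 detected probe sets of *Fzd3*, 3 were thus lower and 1 higher with PP2, and only the first passed 2-fold. Its 2 other probe sets were present on no array.

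**Figure D3:**
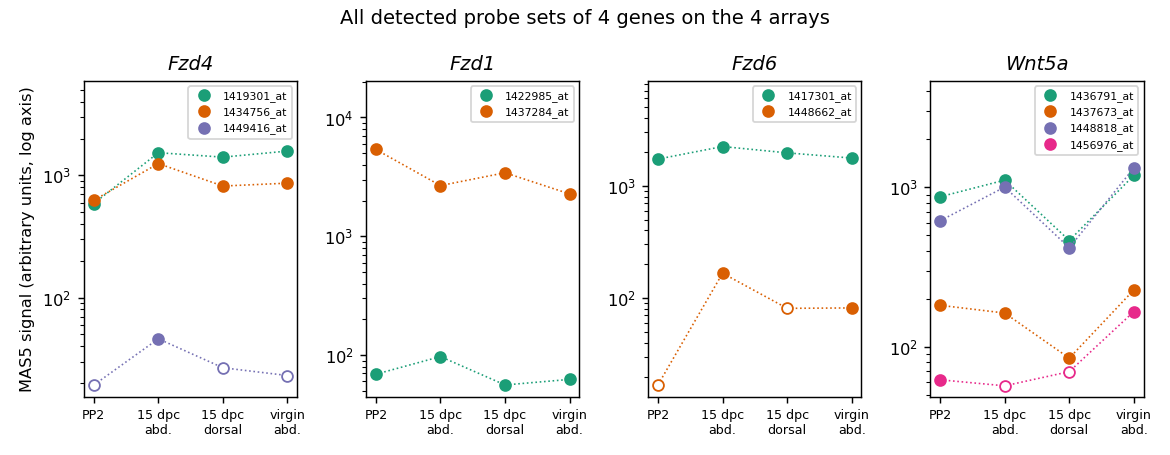
MAS5 signals (arbitrary units, log axis) of every detected probe set of *Fzd4*, *Fzd1*, *Fzd6* and *Wnt5a* on the 4 arrays, where dotted lines join the values of 1 probe set and open points were not called present. The 3 *Fzd4* probe sets are all lowest on the PP2 array, the bright and dim probe sets of *Fzd1* run opposite ways, and the dim *Fzd6* probe set is 16.9 with PP2 while the bright one is 1726.

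Of the co-receptors, *Lrp6* was nearly level. It gave 1112 with PP2, 1072 in abdominal, 1010.5 in dorsal and 936 in virgin skin by its brighter probe set and 388 with PP2, 447 in abdominal, 557 in dorsal and 485 in virgin skin by the dimmer. No ratio of *Lrp6* passed 1.25-fold in the 3 comparisons. *Lrp5*, a regulator of bone mass in humans and mice, was dim, with 41.7 with PP2, 68.8 in abdominal, 52.9 in dorsal and 30.6 in virgin skin, and present on the abdominal and dorsal arrays. It was at least 2.25-fold higher in abdominal skin of pregnant than of virgin mice.

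Probe sets of 1 gene did not always agree in sign. For PP2 over abdominal DMSO, 11 genes had more than 1 counted probe set, and in 6 of them all ratios had the same sign. For abdominal skin of pregnant over virgin mice this held in 5 of 11 genes, and for abdominal over dorsal skin in 7 of 12. Some opposite signs came from small log2 ratios, as for *Lrp6* with PP2 (-0.20 and 0.05). The like share over all genes was not computed, so these counts are not particular to the members.

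The arrays also differed in markers of cell types and in RNA quality. Each marker gene was read through its brightest probe set, by which 3.74% of all genes were higher and 4.89% lower with PP2. For pregnant over virgin abdominal skin, 3.41% were higher and 3.55% lower. For abdominal over dorsal skin, the shares at hand are those of all probe sets, 5.51% and 5.76%. The 18 detected genes of a hair shaft and inner root sheath list summed to a signal of 3003 with PP2, 22719 in abdominal, 1871 in dorsal and 1284 in virgin skin. With PP2, 17 of the 18 were lower than with DMSO in abdominal skin, at a median log2 ratio of -2.63. All 18 were higher in abdominal skin of pregnant than of virgin mice, where the median was 4.55, and 17 were higher in abdominal than in dorsal skin, where it was 4.18. *Krt25*, an inner root sheath keratin, gave 635 with PP2, 3524 in abdominal, 70.4 in dorsal and 19.6 in virgin skin.

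The 15 detected dermal papilla genes, of 16 measured, summed to 27514 with PP2, 13598 in abdominal, 20792 in dorsal and 36618 in virgin skin. Of the 15, 6 were higher and 0 lower with PP2, and 1 was higher and 7 lower in abdominal skin of pregnant than of virgin mice. Between abdominal and dorsal skin, 1 was higher and 5 lower, at a median log2 ratio of 0.11. Single genes differed in pattern. *Crabp1* gave 10496 with PP2, 3586 in abdominal, 3186 in dorsal and 18584 in virgin skin. *Sox2*, a papilla transcription factor, gave 2425 with PP2, 527 in abdominal, 3635 in dorsal and 832 in virgin skin. The Schwann cell gene *Sox10* was also highest in dorsal skin, at 3162, with 1720 with PP2, 864 in abdominal and 561 in virgin skin. Which cells gave the *Sox2* signal was not tested. Epidermal keratinocyte markers were all detected, 16 of 16, in RNA labelled dermis, with sums of 96334 with PP2, 153230 in abdominal, 199420 in dorsal and 116940 in virgin skin. With PP2, 4 of them were lower and 0 higher.

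Blood endothelial genes are given for *Fzd4*, which vessels express. With PP2, 2 of 12 were lower and 0 higher, at a median log2 ratio of -0.37. The 2 were *Pecam1* and *Tie1*. *Pecam1* gave 906 with PP2, 2994 in abdominal, 2238 in dorsal and 2044 in virgin skin, and *Tie1* gave 95.2 with PP2, 354 in abdominal, 256 in dorsal and 315 in virgin skin, both lowest with PP2. The rest of the list stayed within 2-fold with PP2, and not all of it fell. *Emcn* gave 3114 with PP2 and 3106 in abdominal skin, and *Vwf* gave 4624 with PP2 and 4114 in abdominal skin. The 12 summed to 27397 with PP2, 35977 in abdominal, 30278 in dorsal and 35694 in virgin skin. All 12 fibroblast markers were detected, with sums of 130860 with PP2, 142950 in abdominal, 125980 in dorsal and 163030 in virgin skin, and skeletal muscle markers were near background, with 5 of 9 detected and sums of 345 to 544.

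Genes of several lists were higher in abdominal than in dorsal skin, as *Wnt5a* was, and those of others were lower. Of 12 fibroblast genes, 5 were higher and 0 lower, at a median log2 ratio of 0.35. Of 11 smooth muscle and pericyte genes, 3 were higher and 1 lower, and of 6 melanocyte genes 3 were higher and 0 lower. Of 16 keratinocyte genes, 0 were higher and 2 lower, as of 4 Schwann cell genes. Of 6 adipocyte genes, 5 were higher and 0 lower in abdominal than in dorsal skin, at a median log2 ratio of 2.16, and the 6 summed to 34888 with PP2, 56563 in abdominal, 29474 in dorsal and 42113 in virgin skin. Of 9 macrophage genes counted, 6 were higher and 0 lower in abdominal than in dorsal skin, at a median of 1.21. Between pregnant and virgin mice, 5 of 10 were lower and 0 higher in pregnancy. The 10 macrophage genes summed to 4304 with PP2, 4105 in abdominal, 3451 in dorsal and 6473 in virgin skin.

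The 3′ to 5′ signal ratio of *Gapdh*, which rises as RNA is degraded, was 5.84 with PP2, 1.41 in abdominal, 2.97 in dorsal and 2.51 in virgin skin. That of actin was 2.70 with PP2, 2.03 in abdominal, 4.14 in dorsal and 2.64 in virgin skin. PP2 was the highest by *Gapdh* and dorsal skin by actin, while abdominal skin was the lowest by both. The part of cell content and RNA state in the members' ratios was not tested. In whole dermal RNA, fewer cells of a type and less RNA per cell cannot be told apart.

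**Figure D4:**
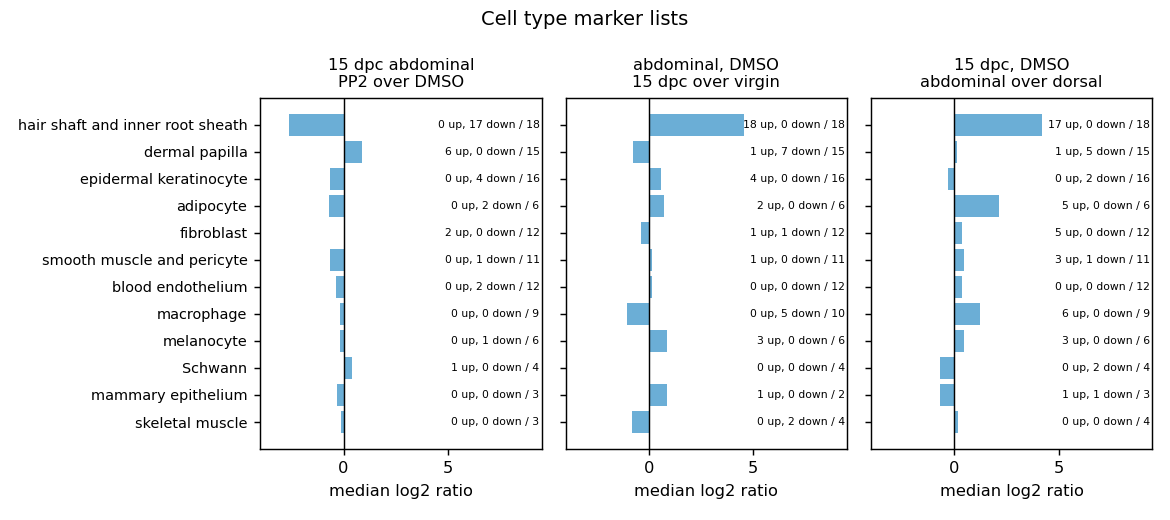
Median log2 ratio of MAS5 signals over the counted genes of 12 cell type marker lists, in 3 comparisons, with the number of genes past 2-fold up and down of those counted beside each bar. Hair shaft and inner root sheath genes have the longest bars, at -2.63 for PP2 over DMSO in abdominal skin, 4.55 for pregnant over virgin and 4.18 for abdominal over dorsal.

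Genes that act with the members were read by 8 lists, each gene through its brightest probe set. The shares to set beside their counts are those given for the marker lists. They were 3.74% of all genes higher and 4.89% lower with PP2, and 3.41% and 3.55% between pregnant and virgin mice. Between body sites, 5.51% of all probe sets were higher and 5.76% lower in abdominal skin. For Wnt secretion, *Porcn*, which adds the lipid, gave 386 with PP2, 187 in abdominal, 402 in dorsal and 229 in virgin skin. It was lowest in abdominal skin, 2.06-fold higher with PP2 and 2.14-fold lower in abdominal than in dorsal skin. *Wls*, which carries the ligand out, passed 2-fold in no comparison. Among 5 alternative receptors, *Ptk7*, a planar polarity receptor, gave 248 with PP2, 533 in abdominal, 487 in dorsal and 434 in virgin skin and was 2.15-fold lower with PP2. *Ror1*, a relative of *Ror2*, was 2.14-fold higher in abdominal than in dorsal skin, and 0 of the 5 passed between pregnant and virgin mice.

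Of 8 genes for partners of single Frizzled or Wnt proteins, 2 were higher with PP2 and 0 lower. They were *Ndp*, which encodes the Fzd4 ligand norrin, and *Cthrc1*, whose protein joins Wnt and Frizzled proteins in mice. *Ndp* gave 334 with PP2, 157 in abdominal, 310.2 in dorsal and 194 in virgin skin, 2.13-fold higher with PP2 than with DMSO in abdominal skin. It did not run opposite to *Fzd4* over the 4 arrays. Its dorsal value lay near that with PP2, while the brightest *Fzd4* probe set gave 1410.5 in dorsal skin and 589 with PP2. *Cthrc1* gave 435 with PP2, 150.1 in abdominal, 258 in dorsal and 121 in virgin skin, 2.90-fold higher with PP2. *Tspan12*, whose protein aids norrin signalling through Fzd4, gave 1400.4 with PP2, 1632 in abdominal, 801 in dorsal and 910.5 in virgin skin and was the 1 gene of the list past the limit between body sites, 2.04-fold higher in abdominal than in dorsal skin.

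Secreted inhibitors were compared next. *Dkk2*, which binds Lrp6, gave 9102 with PP2, 3534 in abdominal, 7085 in dorsal and 10848 in virgin skin. It was lowest in abdominal skin, 2.58-fold higher with PP2, 3.07-fold lower in pregnant than in virgin mice and 2.01-fold lower in abdominal than in dorsal skin. *Sost*, another Lrp-binding inhibitor, was dim, present on the abdominal array alone and at least 2.30-fold lower with PP2. Its signal was 38.5 in abdominal skin, and 43.1 in dorsal and 43.6 in virgin skin without a present call. Of 7 Wnt-binding antagonists counted with PP2, 2 were higher and 0 lower. *Notum*, which removes the lipid from Wnt proteins, gave 869 with PP2, 356 in abdominal, 286 in dorsal and 1132 in virgin skin, 2.44-fold higher with PP2 and 3.18-fold lower in pregnant than in virgin mice. *Sfrp2*, which binds Wnt proteins, gave 578 with PP2, 207 in abdominal, 316 in dorsal and 368 in virgin skin and was 2.80-fold higher with PP2. Between body sites 0 of 6 antagonists passed.

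Inside the cell, 1 of 15 transduction genes passed 2-fold with PP2, near the share of all genes, and 0 between pregnant and virgin mice. The gene was *Lef1*, a TCF/LEF factor of hair follicles and the papilla, which gave 1558 with PP2, 556 in abdominal, 1389 in dorsal and 1099.8 in virgin skin. It was 2.80-fold higher with PP2 and 2.50-fold lower in abdominal than in dorsal skin. *Ctnnb1*, the gene of β-catenin, gave 15805 with PP2, 15700 in abdominal, 14428 in dorsal and 17160 in virgin skin and passed in no comparison. Of 8 planar polarity genes, 0 passed with PP2, at a median log2 ratio of -0.37, and 0 between body sites. *Celsr1*, a planar polarity cadherin, was 2.28-fold higher in abdominal skin of pregnant than of virgin mice.

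Of the genes listed as common targets of the pathway, a few passed 2-fold, in both directions. Of 14 counted with PP2, 2 were higher, *Twist1*, a factor of dermal cells, by 2.74-fold and *Dkk3* by 2.55-fold. A single one was lower, *Rnf43*, which removes Frizzled proteins from the cell surface, with 48.9 with PP2, 217 in abdominal, 162 in dorsal and 111 in virgin skin. Between pregnant and virgin mice, *Twist1* was 2.89-fold lower in pregnancy and the other 13 did not pass. Between body sites, the cyclin gene *Ccnd1* was 2.08-fold higher and *Dkk3* and *Twist1* were 5.10-fold and 2.56-fold lower in abdominal skin. *Axin2*, a widely used reporter of the pathway, gave 1069 with PP2, 746 in abdominal, 900.3 in dorsal and 888 in virgin skin and passed 2-fold in none of the 3 comparisons. Nor did *Nkd1*, *Nkd2*, *Znrf3*, *Lgr5* or *Apcdd1*.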

How the data were processed

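Dermal RNA of 4 conditions was hybridised to Mouse Genome 430 2.0 arrays, with 1 array per condition. Per the labels, the authors used Affymetrix Expression Console (version 1 in the submitters' processing notes) and deposited MAS5 signals, which are intensity values on a linear scale with each array scaled to a 2% trimmed mean of 500, and detection calls without p-values. The deposited table of all arrays differed from the single arrays in 0 probe sets, and 0 columns lacked a sample. The paper's methods name no further filter. Signals were used as deposited, with Python 3.11.15, pandas 2.3.3, numpy 2.4.6 and matplotlib 3.10.9.

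Symbols came from the platform annotation, and all 31 member symbols matched RefSeq GRCm38.p6, which also gave the promoter windows. If the dimmer of a pair was not called present, "at least" sets the brighter signal over the higher of the dimmer signal and the dimmest present signal of that array. The result is nominal and not a true lower limit. Named are members past 2-fold in any comparison (14 genes), the 5 brightest others and up to 4 genes past 2-fold per pathway list. Members, lists and rules were chosen with earlier results of these data known. The rule was tested on simulated arrays. Scaling, fold limit, detection and probe set were varied. With 1 array per condition, the number of arrays limits the precision.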

Additional observations from a re-analysis of the deposited data

How the results depend on the processing

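No paired analysis was possible because each condition had 1 array, which also left no array to leave out. For PP2 over abdominal DMSO, the 3 higher member probe sets became 0 above 3-fold, 6 without a detection filter and 1 against the virgin array. The 9 lower ones became 5 with quantile normalization, with the brightest probe set of each gene, with the set of most present calls and against the dorsal array, 4 with present calls on both arrays or against the virgin array, 2 above 3-fold and 14 without a filter. For pregnant over virgin abdominal skin, the 4 higher became 11 above 1.5-fold, 2 above 3-fold or with 1 probe set per gene by either choice, 8 without a filter and 1 with both arrays present. The 1 lower became 3 above 1.5-fold, 2 with marginal calls counted, 7 without a filter, and 0 above 3-fold, with both arrays present or with 1 probe set per gene. For abdominal over dorsal skin, the 3 higher became 8 above 1.5-fold, 0 above 3-fold, 6 without a filter and 1 with 1 probe set per gene. The 1 lower became 3 above 1.5-fold, 8 without a filter, and 0 above 3-fold, with both arrays present, with 1 probe set per gene or without probe sets whose suffix marks shared probes, an alternative chosen after seeing the data, as were the dorsal and virgin arrays. Requiring every probe set of a gene to be present on at least 1 array left 15 of the 22 detected genes. A detection p-value was not used, since the signals carry calls alone.

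Scaling to 1 median of present signals took *Wnt4* to a log2 ratio of -0.91 with PP2, within 2-fold, and quantile normalization took *Fzd1* to 0.99, *Wnt4* to -0.86, *Wnt16* to -0.998, *Wnt3* to -0.98 and the dim *Fzd4* probe set to -0.92. The median log2 ratio of all probe sets present on both arrays was -0.05 as deposited, 0.06 with 1 median and 0.04 with quantile normalization. Other probe sets of the named genes turned the sign 3 times, *Fzd1* (-0.49) and *Fzd3* (0.88) with PP2 and *Fzd3* (-0.13) for pregnant over virgin skin, took 18 ratios within 2-fold and left 4 past it. The cause was not tested.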
